A study of Mus musculus with 6 samples.

Results

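The 3 peroxisome proliferator-activated receptors (PPARs) and the 3 retinoid X receptors (RXRs) were read on whole-genome arrays of mouse interscapular brown adipose tissue (iBAT). The genes are *Ppara*, *Ppard*, *Pparg*, *Rxra*, *Rxrb*, and *Rxrg*, taken by name as families of nuclear receptors, and their probes were found through the RefSeq accession that the array gives for each probe. All 6 genes were present among the 20659 gene symbols named on the array, with 10 probes in all, and each of these probes was detected on 6 of 6 arrays. The groups were 3 control and 3 *ob/ob* arrays, 1 per sample, of male mice aged 16 weeks on the C57BL/6 background. *ob/ob* mice carry a mutated leptin gene in every cell and become obese, so differences between the groups cannot be assigned to brown adipocytes themselves. The labels describe the controls only as control, and pooling of RNA is not mentioned there.

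PPARs are transcription factors that fatty acids and their derivatives activate. Each binds DNA together with an RXR, which responds to retinoids, at a direct repeat of the sequence AGGTCA, and the pair recruits coactivators to genes of lipid metabolism. In brown fat, PPARα is known for driving FA oxidation and thermogenic genes, PPARγ for establishing and maintaining the adipocyte, and PPARδ for FA oxidation in many tissues. RXRα and RXRβ are found widely, whereas RXRγ is more restricted in its distribution.

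Probes carry no sequence in the files, so the promoters from which the receptors are transcribed are shown. RefSeq (assembly GRCm38.p6) gave 11 start sites for the 6 genes, and the 250 bases before each were searched on both strands for AGGTCA and for the repeat with a 1-base spacer, AGGTCANAGGTCA. The window of *Ppara* is printed because *Ppara* held the probe with the clearest separation of the groups, and the other windows because they hold the motif. All run 5′ to 3′ on the + strand, end just before the first transcribed base, and have the motif in capitals.
Ppara, chr15:85735526-85735775: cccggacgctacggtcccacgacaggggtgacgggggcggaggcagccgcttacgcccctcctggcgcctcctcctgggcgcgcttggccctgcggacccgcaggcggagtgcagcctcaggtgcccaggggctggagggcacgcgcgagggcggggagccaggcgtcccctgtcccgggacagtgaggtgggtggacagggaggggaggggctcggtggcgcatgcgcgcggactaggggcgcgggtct
Pparg, start site 1, chr6:115360894-115361143: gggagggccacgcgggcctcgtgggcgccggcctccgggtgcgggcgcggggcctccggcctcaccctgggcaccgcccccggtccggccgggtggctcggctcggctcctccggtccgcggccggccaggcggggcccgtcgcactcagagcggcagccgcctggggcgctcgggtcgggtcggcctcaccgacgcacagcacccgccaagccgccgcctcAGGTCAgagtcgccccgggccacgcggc
Pparg, start site 2, chr6:115362099-115362348: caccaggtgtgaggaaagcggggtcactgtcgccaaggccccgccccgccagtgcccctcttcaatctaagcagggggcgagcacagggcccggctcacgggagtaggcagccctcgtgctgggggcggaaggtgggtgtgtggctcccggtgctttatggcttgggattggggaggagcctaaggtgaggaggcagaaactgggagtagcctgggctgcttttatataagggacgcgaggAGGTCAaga
Rxra, start site 2, chr2:27709042-27709291: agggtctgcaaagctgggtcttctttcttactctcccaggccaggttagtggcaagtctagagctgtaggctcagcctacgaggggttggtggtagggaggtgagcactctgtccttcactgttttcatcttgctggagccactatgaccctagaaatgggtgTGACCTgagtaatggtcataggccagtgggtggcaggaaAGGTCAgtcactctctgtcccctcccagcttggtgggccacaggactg
Rxrg, start site 2, chr1:167618015-167618264: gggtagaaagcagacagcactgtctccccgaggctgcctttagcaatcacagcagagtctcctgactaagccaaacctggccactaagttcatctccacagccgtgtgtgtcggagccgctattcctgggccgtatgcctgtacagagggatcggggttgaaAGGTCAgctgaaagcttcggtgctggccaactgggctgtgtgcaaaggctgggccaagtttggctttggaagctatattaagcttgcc

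The motif lay in 4 of the 11 windows, compared with 14% of 32851 windows of the same length over all genes. In *Pparg* it began 28 bases before start site 1 and 9 bases before start site 2. The window of *Rxra* start site 2 held the motif on the − strand (written TGACCT, 87 bases before the start) and on the + strand (48 bases before). In *Rxrg*, the motif began 88 bases before start site 2. No window of *Ppara*, *Ppard*, or *Rxrb* held these letters, and the full repeat was in 0 of the 11 windows and in 0.0335% of all windows. GC content was 76.4% in the *Ppara* window, 82.4% and 63.6% in the printed *Pparg* windows, and 55.2% in each of the printed *Rxra* and *Rxrg* windows, against a median of 52.4% over all windows. A match describes the sequence only and is not evidence of binding.

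Each array held 43020 spots, of which 83.5% to 89.9% lay well above background, and no spot was saturated. Signals are intensities on the log2 scale after quantile normalization between arrays, and a change is the *ob/ob* mean minus the control mean in log2 units. With 3 arrays per group, precision is limited by their number. The values of a group are always listed in the order of its replicate numbers. Control 3 stood apart from its group, with a Spearman correlation across probes of 0.642 and 0.730 with control 1 and control 2 but of 0.915 and 0.944 with *ob/ob* 1 and *ob/ob* 2. *ob/ob* 3 correlated at 0.573 and 0.488 with the other *ob/ob* arrays and at 0.858 with control 1. Every change of a receptor probe is therefore also given without each of these arrays. The arrays were read in 4 scans, and control 1, control 3, and *ob/ob* 1 shared 1 of them, which allows a comparison within a scan of 1 *ob/ob* with 2 control arrays. *Lep* was 4.57 to 5.74 log2 units in the controls and 5.83 to 9.33 in *ob/ob* iBAT, and since the *ob* mutation leaves a transcript, this signal does not check the labels. *Ucp1*, the uncoupling protein that defines brown adipocytes, was detected on all arrays, at 9.48 to 13.05 in the controls and 8.93 to 10.03 in *ob/ob* iBAT.

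No probe of the 6 receptors differed between the groups at an adjusted p under 0.05. The same held for the array as a whole, with 0% of the 35448 probes called (limma with Benjamini-Hochberg adjustment, lowest adjusted p = 0.154) and 1245 probes at an unadjusted p under 0.05. Of the 10 receptor probes, 1 had an unadjusted p under 0.05, the middle probe of *Ppara*, which was lower in *ob/ob* iBAT. By comparison, 1.52% of all probes were lower and 1.99% higher at that threshold. The brightest probe stands for a gene with several probes, and by it 5 of the 6 receptors were lower in *ob/ob* iBAT, with a median change of −0.33, against 57.2% of 19011 genes lower and a median of −0.09 over all genes. Without control 3, 3 of 6 were lower, with a median of −0.10 and 54.4% of all genes lower, and without *ob/ob* 3, 2 of 6 were lower, with a median of 0.28 and 50.5% of all genes lower.

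**Figure D1:**
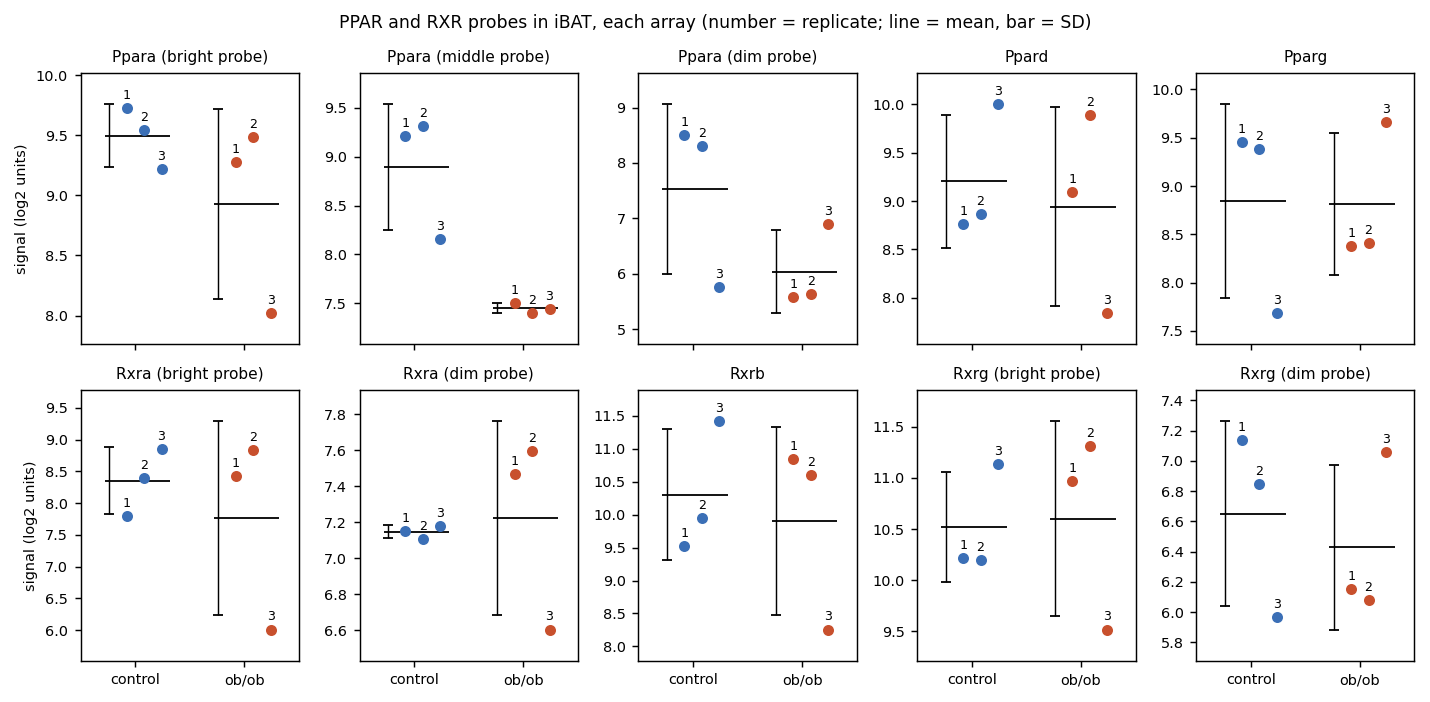
Normalized signal (log2 units, vertical axes of different ranges) of each of the 10 receptor probes on the 3 control and 3 *ob/ob* arrays. Each point is an array with its replicate number, lines are means, and bars are SDs. The groups separate only for the middle probe of *Ppara*, and in most panels control 3 or *ob/ob* 3 lies farthest from its group.

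*Ppara*, which encodes the receptor of the FA oxidation program, had 3 probes, called bright, middle, and dim after their mean signal. All 3 were lower in *ob/ob* iBAT, by 0.57, 1.45, and 1.49 log2 units in that order, and only the middle probe had every *ob/ob* array below every control array. The middle probe (A_55_P2055854) read 9.21, 9.31, and 8.15 in the controls and 7.50, 7.40, and 7.44 in *ob/ob* iBAT. Control 3 lay more than 1 log2 unit below the other controls but 0.66 above the highest *ob/ob* array, while the *ob/ob* arrays were nearly level with each other. The means were 8.89 ± 0.64 (SD, n = 3) and 7.45 ± 0.05 (SD, n = 3), a change of −1.45 (SE 0.41, 95% interval −2.44 to −0.45), which is a 2.72-fold lower signal. The limma p was 0.0115 unadjusted and 1.0 adjusted. An exact permutation test gave p = 0.10 (two-sided), the smallest that 3 arrays against 3 allow, and 4.19% of all probes had groups separated in this direction (3.74% in the other). The change was −1.82 without control 3, −1.44 without *ob/ob* 3, and −1.19 within the shared scan.

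The bright *Ppara* probe (A_55_P2071601) read 9.73, 9.54, and 9.22 in the controls and 9.28, 9.48, and 8.02 in *ob/ob* iBAT. *ob/ob* 1 and 2 lay within the range of the controls, and the low signal of *ob/ob* 3 carried most of the difference. Its change was −0.57 (SE 0.48, 95% interval −1.72 to 0.58, limma unadjusted p = 0.276), and it was −0.71 without control 3 but −0.12 without *ob/ob* 3. Within the shared scan, it was −0.20.

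The dim *Ppara* probe (A_55_P2071596) read 8.51, 8.31, and 5.76 in the controls and 5.58, 5.63, and 6.90 in *ob/ob* iBAT. Control 1 and control 2 stood above all other arrays, control 3 sat with *ob/ob* 1 and 2, and *ob/ob* 3 lay between. The change was −1.49 (SE 0.83, 95% interval −3.50 to 0.52, limma unadjusted p = 0.121). Without control 3 it was −2.37, without *ob/ob* 3 −1.92, and within the shared scan −1.55.

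Whether the *Ppara* probes changed unequally was tested with limma's diffSplice, which compares the changes of the probes of a gene. It treats these probes as independent, though they were read on the same arrays, so its p values are only a rough guide. The F-test did not resolve a difference (unadjusted p = 0.536, adjusted p = 1.0). Over 4726 genes with at least 2 probes tested, 0% passed, with 137 genes at an unadjusted p under 0.05. The differences between pairs of probes were taken within arrays. The change of the bright probe differed from that of the middle probe by 0.88 log2 units (SE 0.52, exact permutation p = 0.20) and from that of the dim probe by 0.92 (SE 1.15, exact permutation p = 0.40), and neither difference exceeded the spread between arrays. The middle and dim probes differed by 0.04 (SE 0.68, exact permutation p = 1.0). Averaged over its 3 probes, *Ppara* had a change of −1.17 (limma unadjusted p = 0.0438, adjusted p = 1.0 over genes).

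Brown adipocyte markers were highest on control 1 and control 2, as were the middle and dim *Ppara* probes. Of 12 markers, 9 were lower in *ob/ob* iBAT, with a median change of −1.60, and 2 had an unadjusted p under 0.05. Without control 3, the median was −2.31, with 7 lower at that threshold, and without *ob/ob* 3, it was −1.67, with 4. Their mean signal was 7.28 to 9.54 in the controls, lowest in control 3, and 6.93 to 7.92 in *ob/ob* iBAT. Skeletal muscle markers ranged more widely, from 7.86 to 10.32 in the controls and from 6.07 to 11.49 in *ob/ob* iBAT, where *ob/ob* 3 was the highest of all arrays, and 9 of 10 were lower, with a median change of −1.26 (−1.94 without control 3 and −2.39 without *ob/ob* 3). Skeletal muscle markers lower at an unadjusted p under 0.05 numbered 0 in limma over all arrays, 0 without control 3, and 8 without *ob/ob* 3. The 1 marker that was higher passed that threshold over all arrays and with either array left out. Among all genes, 1.69% were lower at that threshold over the 6 arrays, 4.18% without control 3, and 4.43% without *ob/ob* 3. The shares that were higher were 2.04%, 5.38%, and 5.88%. Both arrays resembled the other group, so leaving either out favors larger differences. Endothelial markers had a median change of −0.85 (−1.32 without control 3 and −1.33 without *ob/ob* 3), with 7 of 8 lower. The part of these cell types in the *Ppara* signal was not tested, and in RNA of whole tissue fewer cells of a type cannot be told apart from less RNA per cell.

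*Pparg* encodes the receptor on which adipocyte differentiation depends. It showed the smallest change of the 6 receptors. Its probe (A_51_P106799) read 9.46, 9.38, and 7.69 in the controls and 8.38, 8.41, and 9.66 in *ob/ob* iBAT. Control 3 was the lowest and *ob/ob* 3 the highest of the 6 arrays, so each group spanned more than a log2 unit and the ranges overlapped. The means were 8.84 ± 1.001 (SD, n = 3) and 8.82 ± 0.73 (SD, n = 3), a change of −0.03 (SE 0.64, limma unadjusted p = 0.968). The 95% interval of −1.57 to 1.51 leaves room for a change of more than 1 log2 unit either way. The probe was spotted 10 times on each array, and the SD between spots of an array was 0.052 to 0.110 log2 units before normalization between arrays, far below the spread between arrays of a group. The change was −0.60 without control 3, −0.45 without *ob/ob* 3, 0.18 to 0.28 with 1 of the other arrays left out, 0.07 with scaling to the 75th percentile, and −0.20 within the shared scan. Markers of white and general adipocytes, which include *Pparg* targets, were likewise highest on control 1, control 2, and *ob/ob* 3, with a mean signal of 10.7, 10.4, and 8.82 in the controls and 9.17, 8.69, and 10.8 in *ob/ob* iBAT. Their part in the *Pparg* signal was not tested.

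*Ppard*, the most widely expressed PPAR, was read by 1 probe (A_66_P124715), at 8.76, 8.86, and 9.9996 in the controls and 9.09, 9.89, and 7.84 in *ob/ob* iBAT. Control 3 was the highest and *ob/ob* 3 the lowest array, the reverse of *Pparg*. The change was −0.27 (SE 0.64, 95% interval −1.81 to 1.27, limma unadjusted p = 0.691). It turned to 0.13 without control 3 and to 0.28 without *ob/ob* 3, and it was −0.29 within the shared scan.

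**Figure D2:**
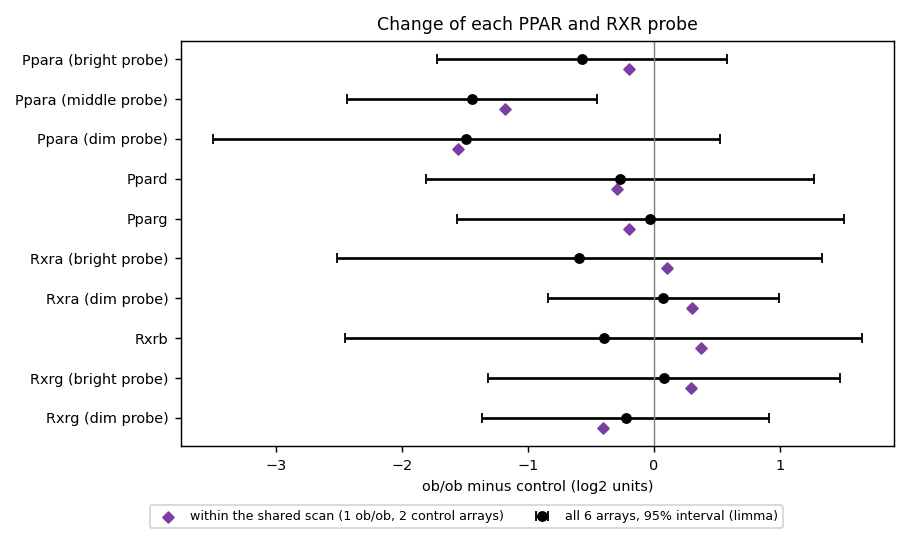
Change of each receptor probe, as *ob/ob* minus control in log2 units. Circles and bars are the change over all 6 arrays with its 95% interval from limma, and diamonds are *ob/ob* 1 minus the mean of control 1 and control 3, which were read in the same scan. The interval of the middle *Ppara* probe, −2.44 to −0.45, is the only one that leaves out 0.

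Among the RXRs, the obligate partners of the PPARs, no probe had an unadjusted p under 0.05, and control and *ob/ob* arrays overlapped for all 5 probes. *Rxrb* was read by 1 probe (A_55_P2008609), at 9.52, 9.95, and 11.42 in the controls and 10.85, 10.60, and 8.26 in *ob/ob* iBAT. Its signal spanned 3.16 log2 units over the 6 arrays, the widest range of the 10 probes, with control 3 highest and *ob/ob* 3 lowest. The change was −0.40 (SE 0.85, 95% interval −2.45 to 1.65, limma unadjusted p = 0.655). It was 0.16 without control 3, 0.42 without *ob/ob* 3, and 0.38 within the shared scan.

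The bright *Rxra* probe (A_51_P307370) read 7.80, 8.40, and 8.86 in the controls and 8.43, 8.84, and 6.01 in *ob/ob* iBAT. *ob/ob* 3 lay well below every other array, and the other *ob/ob* arrays fell among the controls. The change was −0.59 (SE 0.80, 95% interval −2.51 to 1.33, limma unadjusted p = 0.484), and it was −0.34 without control 3, 0.28 without *ob/ob* 3, and 0.10 within the shared scan. The dim *Rxra* probe (A_55_P2074331) read 7.15, 7.11, and 7.18 in the controls and 7.47, 7.59, and 6.60 in *ob/ob* iBAT. Here the controls were almost level, *ob/ob* 1 and 2 lay above them, and *ob/ob* 3 lay below. Its change was 0.08 (SE 0.38, 95% interval −0.84 to 0.99), with 0.09 without control 3, 0.39 without *ob/ob* 3, and −0.14 with scaling to the 75th percentile. The changes of the *Rxra* probes differed by 0.67 (SE 0.64, exact permutation p = 0.40, diffSplice unadjusted p = 0.489).

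The bright *Rxrg* probe (A_55_P2044359) read 10.21, 10.20, and 11.14 in the controls and 10.97, 11.32, and 9.52 in *ob/ob* iBAT, and the dim probe (A_51_P513311) read 7.14, 6.85, and 5.96 and then 6.15, 6.08, and 7.06. On every array where 1 of the probes lay above its own mean, the other lay below it, and the within-array difference between the probes, after each was set to its own mean, ran over 2.77 log2 units. Neither probe separated the groups. The changes were 0.08 (SE 0.58, 95% interval −1.31 to 1.48) for the bright and −0.22 (SE 0.47, 95% interval −1.36 to 0.92) for the dim probe. They differed by 0.31 (SE 1.09, exact permutation p = 0.90, diffSplice unadjusted p = 0.700). Without control 3, the changes were 0.39 and −0.56, and without *ob/ob* 3, they were 0.63 and −0.54.

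**Figure D3:**
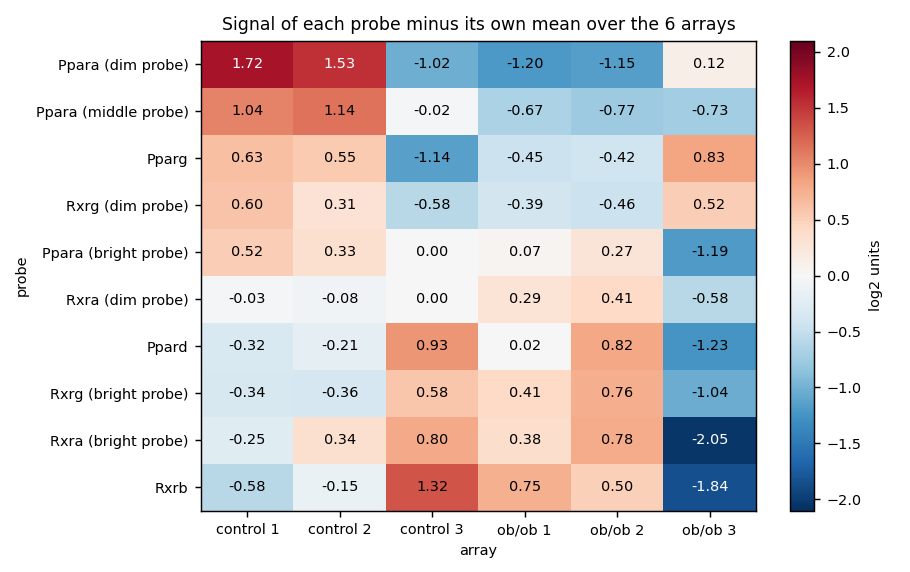
Signal of each receptor probe on each array minus the mean of that probe over the 6 arrays, in log2 units (red above the mean, blue below). *Pparg* and the dim *Rxrg* probe were high on control 1, control 2, and *ob/ob* 3, whereas *Rxrb*, *Ppard*, and the bright *Rxra* and *Rxrg* probes were at their lowest on *ob/ob* 3.

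Across the arrays, the receptor probes fell into opposite patterns that did not follow the groups. The arrays split in the same way over all probes, so these patterns are not particular to the receptors. Over all probes, deviations from the group means correlated at 0.77 and 0.83 between control 3 and *ob/ob* 1 and 2. With *ob/ob* 3, those of control 1 and control 2 correlated at 0.87 and 0.68. *Pparg*, the dim *Ppara* probe, and the dim *Rxrg* probe were above their own means on control 1, control 2, and *ob/ob* 3 and below them on control 3, *ob/ob* 1, and *ob/ob* 2. *Rxrb*, *Ppard*, and the bright *Rxrg* probe ran the other way on all 6 arrays. The probes of *Rxrg* were thus found on opposite sides. *ob/ob* 3 was the lowest array for 6 of the 10 probes. The 15 differences in change between pairs of receptors, taken within arrays from the brightest probes, ranged in size from 0.02 to 0.68 log2 units. The largest was between *Rxra* and *Rxrg* (−0.68, SE 0.38, 95% interval −1.74 to 0.39, exact permutation p = 0.10), and the adjusted p was 1.0 for all 15 (exact permutation tests, Benjamini-Hochberg over the pairs). With intervals of this width, like changes of 2 receptors are not shown either.

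**Figure D4:**
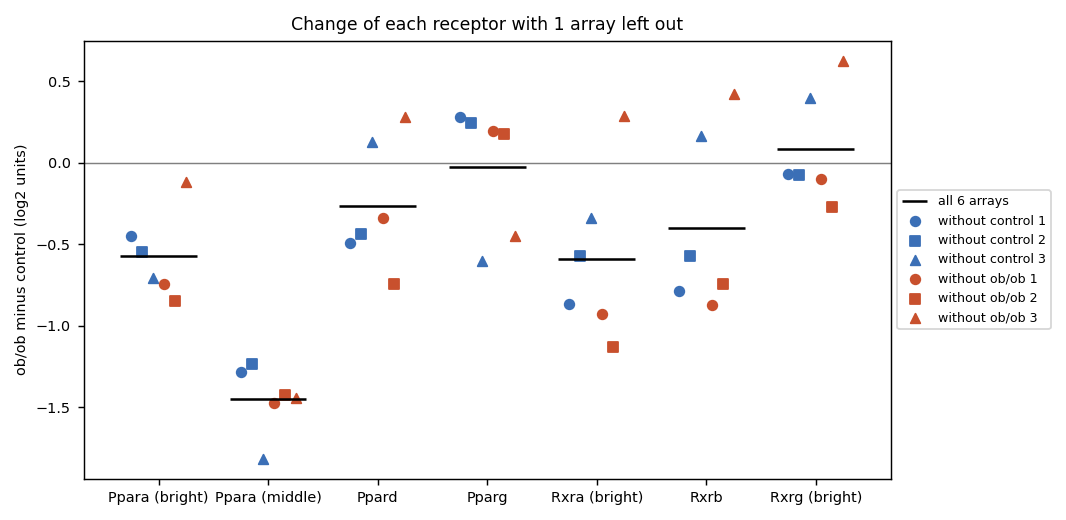
Change of the brightest probe of each receptor, and of the middle *Ppara* probe, over all 6 arrays (black lines) and with 1 array left out (points, blue for a control and orange for an *ob/ob* array), in log2 units. The middle *Ppara* probe stayed between −1.82 and −1.24, while *Ppard*, *Pparg*, *Rxra*, *Rxrb*, and *Rxrg* crossed 0.

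For each receptor, the genes with the most similar course over the arrays were sought among 15885 genes detected on all 6, leaving out the receptors, by the root-mean-square difference of signals set to their own means. For *Ppara* (bright probe), these were *Paxx* (0.093 log2 units) and *Ccr7* (0.122). For *Ppard*, they were *Duxbl2* (0.067) and *Slc22a14* (0.081), and for *Pparg*, *Prkd3* (0.086) and *Amz2* (0.102). *Rxra* was nearest to *Dnajc14* (0.038) and *Cldn18* (0.074), *Rxrb* to *Trio* (0.090) and *2810006K23Rik* (0.096), and *Rxrg* to *Aurkc* (0.052) and *Lage3* (0.061). The courses of the receptors themselves had root-mean-square sizes of 0.56 to 1.02 log2 units. The distances were not compared with those usual among other genes, so a near course over 6 arrays does not show shared regulation.

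Genes that work with or under the receptors were described in lists, by the brightest probe of each gene. No list held a gene at an adjusted p under 0.05, with or without control 3 or *ob/ob* 3. Of all genes, 1.69% were lower and 2.04% higher at an unadjusted p under 0.05, and these shares were 4.18% and 5.38% without control 3 and 4.43% and 5.88% without *ob/ob* 3. Among coregulators, 12 of 20 were lower, with a median change of −0.16 (−0.36 without control 3 and −0.38 without *ob/ob* 3), and 2 lower and 1 higher had an unadjusted p under 0.05, all with separated groups. Leaving out either array, 3 lower and 1 higher did. *Ppargc1b*, a coactivator of PPARs and of mitochondrial biogenesis, read 9.95, 9.98, and 8.04 in the controls and 5.31, 4.87, and 6.53 in *ob/ob* iBAT (change −3.75, SE 0.70, limma unadjusted p = 0.00152). *Ppargc1a*, its cold-inducible relative, read 10.06, 9.99, and 7.59 in the controls and 5.81, 5.53, and 7.58 in *ob/ob* iBAT (change −2.91, SE 0.87), so that control 3 and *ob/ob* 3 were almost equal. *Ncor1*, a corepressor of nuclear receptors, read 6.94, 6.25, and 6.54 in the controls and 7.73, 7.92, and 7.37 in *ob/ob* iBAT, a higher signal by 1.099 (SE 0.35). All 3 kept their direction and an unadjusted p under 0.05 without control 3 and without *ob/ob* 3.

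In *ob/ob* iBAT, 12 of the 22 PPARα targets tested had a lower and 10 a higher signal, with a median change of −0.23. Over the 6 arrays, only *Cpt1b*, which encodes a carnitine palmitoyltransferase of FA oxidation, had an unadjusted p under 0.05. Its change of −1.67 (SE 0.50) was −2.19 without control 3 and −1.59 without *ob/ob* 3. Without control 3, 15 of 22 were lower, with a median of −0.63, and 5 were lower at an unadjusted p under 0.05. Without *ob/ob* 3, 16 of 22 were lower, with a median of −0.60, and 3 were lower and 2 higher at that threshold. Of 19 PPARγ targets, 13 were lower, with a median of −0.56. *Aqp7*, the glycerol channel of adipocytes, read 11.17, 11.99, and 10.61 in the controls and 9.41, 9.69, and 8.64 in *ob/ob* iBAT (change −2.01, SE 0.50, limma unadjusted p = 0.00594). *Retn*, which encodes the adipokine resistin, had a change of −1.98 (SE 0.76, limma unadjusted p = 0.0385), and control 3 exceeded the highest *ob/ob* array by little (7.86 against 7.77). The change of *Retn* was −2.84 without control 3 (limma unadjusted p = 0.000689) and −1.99 without *ob/ob* 3 (limma unadjusted p = 0.0768). For both genes, control and *ob/ob* arrays stayed apart with either array left out. The changes of *Aqp7* were −2.34 without control 3 and −1.71 without *ob/ob* 3. Over all PPARγ targets, 16 of 19 were lower without control 3 (median −1.04) and without *ob/ob* 3 (median −0.86), and 6 and 2 of them had an unadjusted p under 0.05, against 2 over all arrays. Of 12 PPARδ and shared targets, 8 were lower, with a median of −0.20, and 0 had an unadjusted p under 0.05 in limma over the 6 arrays. The largest changes among those detected on all arrays were those of *Slc25a42*, a mitochondrial CoA carrier (−1.36, SE 1.0), and *Txnip* (−0.46, SE 0.40), both with overlapping groups. *Slc25a42* had a change of −2.38 without control 3, with separated groups and an unadjusted limma p of 0.0169, and of −1.95 without *ob/ob* 3, with overlapping groups and p of 0.124 in limma. Without control 3 and without *ob/ob* 3, 10 of 12 targets were lower, with medians of −0.94 and −0.97, and 1 had an unadjusted p under 0.05 in each case. *Txnip* had changes of −0.50 and −0.14.

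**Figure D5:**
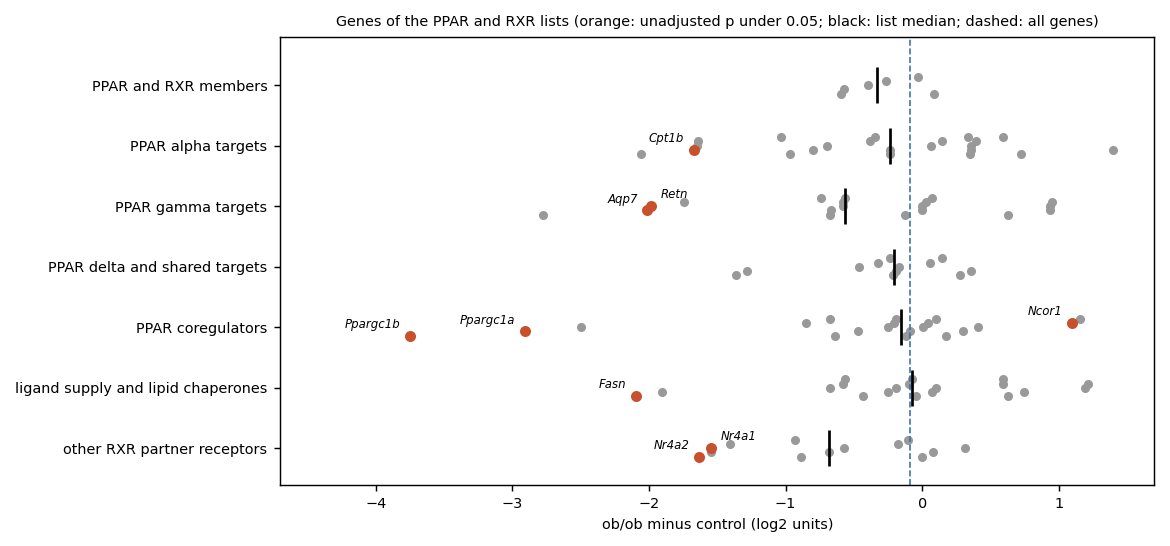
Change (*ob/ob* minus control, log2 units) of every gene tested in the receptor, target, coregulator, ligand, and partner lists. Each point is a gene, orange where the unadjusted limma p was under 0.05, black bars are list medians, and the dashed line is the median of all genes (−0.09). *Ppargc1b* and *Ppargc1a* had the largest changes, at −3.75 and −2.91, and the 6 receptors lay between −0.59 and 0.08.

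Other nuclear receptors that pair with RXRs had a median change of −0.69, with 11 of 13 lower. Without control 3 and without *ob/ob* 3, 9 of 13 were lower, with medians of −0.45 and −0.39, and 4 and 3 were lower at an unadjusted p under 0.05. Over the 6 arrays, the members with an unadjusted p under 0.05 were *Nr4a1* and *Nr4a2*, orphan receptors induced as immediate early genes. *Nr4a2* read 7.46, 7.55, and 7.26 in the controls and 5.69, 5.85, and 5.84 in *ob/ob* iBAT, a change of −1.63 (SE 0.30). *Nr4a1* read 10.83, 10.40, and 9.76 in the controls and 8.69, 8.94, and 8.74 in *ob/ob* iBAT, a change of −1.54 (SE 0.38). For both, control 3 lay with the controls and *ob/ob* 3 with the *ob/ob* arrays. Within the shared scan, the changes were −1.67 for *Nr4a2* and −1.61 for *Nr4a1*. Of 19 genes of ligand supply and lipid chaperones, 11 were lower, with a median of −0.07 (−0.12 without control 3 and −0.09 without *ob/ob* 3). Over the 6 arrays, 1 was lower and 0 higher at an unadjusted p under 0.05. These counts were 2 and 1 without control 3 and 2 and 2 without *ob/ob* 3. The largest changes were those of *Fasn*, the FA synthase (−2.097, SE 0.83), and of *Crabp2*, which carries retinoic acid (1.21, SE 0.61). Both had overlapping groups over the 6 arrays and separated ones without control 3 or without *ob/ob* 3, with changes of −2.92 and −2.59 for *Fasn* and of 1.67 and 1.71 for *Crabp2*. Of all probes, 10.3% were separated as lower and 12.8% as higher without control 3, and 12.9% and 16% without *ob/ob* 3.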

How the data were processed

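Total RNA of iBAT was amplified, labeled with Cy3, and hybridized to Agilent 1-color arrays. Spot intensities from Agilent Feature Extraction (version 11.0.1.1) were deposited by the authors, corrected for background within the array and not normalized between arrays. They also deposited log2 values quantile normalized in GeneSpring, which correlated at 0.987 to 0.998 with the scanner values and served as an alternative. No other columns of the files were needed.

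Spots with outlier flags and control spots were left out. Replicate spots were averaged as log2 intensities, and arrays were quantile normalized, which makes the distributions of the 6 arrays equal. Probes detected on at least 3 of 6 arrays, with 50% of their spots well above background, were compared between groups in R 4.3.3 by limma 3.58.1, with Benjamini-Hochberg adjustment over 35448 probes. The methods state the normalization, the detection rule, and an adjusted p under 0.05 for the arrays, but not which test gave it. The study's general statistics use a t-test between pairs of groups, which was run as an alternative. Probes were named through RefSeq accessions and the annotation of GRCm38.p6 (27234 of 28684). The array's own annotation uses another build, so no gene coordinates are given. Permutation tests were run in scipy (version 1.17.1), and code was tested on simulated data. No fit dropped or imputed a sample, except where 1 array is said to be left out, and a group of 2 is then assumed to vary like the other.

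The receptors, lists, and tests were chosen with earlier results of these data known. Named are every receptor probe, list genes with an unadjusted p under 0.05 and separated groups, or otherwise the 2 largest changes of a list among genes detected on all arrays, and the 2 genes nearest to each receptor. *Fgf21*, *Gyk*, *Olr1*, *Rdh10*, and *Cd68* of the lists were not among the genes tested. Some genes are not reported here. Of the other marker lists, macrophages had a median change of 0.25 (0.60 without control 3, 0.19 without *ob/ob* 3), lymphocytes of −0.11 (0.071 and 0.14), erythrocytes of −0.32 (−0.82 and −0.79), and white and general adipocytes of −0.07 (−0.98 and −1.01). Nothing in the labels says that samples are separate animals, so p values measure the spread between these samples. Leaving out control 3 or *ob/ob* 3 from the lists was chosen after seeing the data. The other alternatives were 75th percentile scaling, normexp (offset 50), detection on all arrays or no filter, the methods' t-test, an intensity trend with robust estimation, the replicate number or scan as a block, and the mean of a gene's probes.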

Additional observations from a re-analysis of the deposited data

How the results depend on the processing

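The 3 *Ppara* probes were lower in *ob/ob* iBAT under every alternative run, from −0.85 to −0.12 for the bright (−1.17 for the mean of the 3 probes), −1.82 to −1.19 for the middle, and −2.37 to −0.998 for the dim probe. The middle probe had an unadjusted p under 0.05 in 13 of 15 alternatives (0.329 with the scan as a block and 0.0542 without control 2), and its lowest adjusted p was 0.320 (limma). The other receptors turned sign. With 75th percentile scaling, which moved the median of all probes from −0.07 to −0.32, *Pparg* was 0.066 and the dim *Rxra* probe −0.14. With the scan as a block, *Rxra* was 0.10 and *Rxrb* 0.38, and over the mean of its probes *Rxrg* was −0.069. The changes with the scan as a block repeat those within the shared scan, since each other scan held 1 array. With 1 array left out, changes ran from −0.60 to 0.28 for *Pparg*, −0.74 to 0.28 for *Ppard*, −1.13 to 0.28 for *Rxra*, −0.87 to 0.42 for *Rxrb*, −0.27 to 0.63 for *Rxrg*, −0.11 to 0.39 for the dim *Rxra* probe, and −0.56 to 0.022 for the dim *Rxrg* probe. The causes were not tested.

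No alternative gave an adjusted p under 0.05 for a receptor. Over all probes, limma with a trend and robust estimation called 1 lower probe (*Impg2*, named after its value was seen), and the methods' t-test called 0, with 1512 at an unadjusted p under 0.05. Normexp gave 3 genes with unequal probe changes, among them *Dppa4* and *Hydin*. Probes at an unadjusted p under 0.05 numbered 705 higher and 540 lower, against 139 and 312 with 75th percentile scaling, 35 and 113 with the scan as a block, and, with 1 array left out, 112 to 2188 and 173 to 1296, the highest without *ob/ob* 3. Without control 3, they were 1804 and 1201. Probes with separated groups numbered 1324 higher and 1484 lower, against 721 higher with 75th percentile scaling, and 1414 to 5688 and 1685 to 4587 with 1 array left out. Same-numbered arrays deviated from the means of their groups in opposite directions (correlations −0.78, −0.66, and −0.85). Control 3 and *ob/ob* 3 each stood apart from the group, which shapes these values, so they cannot show whether the numbers pair the samples. The replicate block gave 139 probes higher and 220 lower.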
